A study of Mus musculus with 24 samples.

Results

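Families of transcription regulators of early muscle and of the somites, the blocks of embryonic tissue that give rise to trunk muscle, were followed through the formation of the mouse diaphragm. The 9 genes are Six2, Six4 and Six5, the coactivators Eya1, Eya2, Eya3 and Eya4, and the homeobox genes Meox1 and Meox2. They were chosen by name, with earlier results of these data known. They are 9 of the 19351 genes measured, and each is read by 1 probe set that matches a single gene. RNA of tissue dissected by laser out of frozen sections of embryos, all of the inbred strain C57BL/6J, was read on Affymetrix Mouse Gene 1.0 ST arrays. At E11.5 and E12.5 (days after mating) the tissue was the pleuroperitoneal fold, the ridge that muscle precursors enter, and at E16.5 it was the diaphragm after muscle had formed. There were 24 arrays, 8 for each stage, and every mean and SD below is over n = 8 arrays unless another number is given. The labels name no genetic change and no treatment. The labels do not say whether the 8 arrays of a stage came from separate embryos, so p-values measure the spread between these arrays.

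Six-family proteins are homeodomain factors that bind a DNA element named MEF3 in the control regions of muscle genes. Eya proteins have no DNA-binding domain. They are phosphatases that Six-family proteins carry to DNA as coactivators, while Dach proteins act there as corepressors. In the precursors that leave the somites for limb and diaphragm, Eya and Six-family proteins act upstream of Pax3 and of the myogenic factors, and they are later needed for fast-fibre genes. Meox1 and Meox2 are homeodomain factors of the somites, and Meox2 is also known from limb muscle and from vessel walls.

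Values are log2 intensities. A difference of 1 on this scale is a 2-fold difference. Array medians over all genes lay between 7.45 and 7.57 and lower quartiles between 6.40 and 6.64. All values of 8 members lay above the lower quartile of their array, and Meox2 lay below it in 1 E11.5 array. Standing above that quartile does not show that a gene was detected. At E16.5 the means of Six2 (7.29), Six4 (7.30) and Eya2 (7.33) lay below every array median, as did Six4 at E12.5 (7.32). The sizes of the falls of these genes are thus less certain. A probe set's level depends on its probes, so levels are compared here between stages for 1 gene and never between genes. Other tissue moved with the stages. The mean of 10 skeletal muscle markers spanned 8.36 to 9.90 (E11.5), 8.61 to 11.81 (E12.5) and 12.62 to 13.09 (E16.5), with all 10 risen at E16.5 against either earlier stage. For 9 markers of fold mesenchyme the mean spanned 9.13 to 9.57, 9.05 to 9.40 and 8.20 to 8.57. Of the 9, 7 fell at E16.5 against either earlier stage. Prrx1 rose by 0.95 from E12.5 to E16.5, and Tcf21 was called neither risen nor fallen. For 6 hepatocyte markers the mean spanned 6.98 to 7.47, 8.59 to 12.73 and 10.52 to 12.44. For 5 endothelial markers the mean spanned 7.92 to 8.59, 7.84 to 8.41 and 8.53 to 9.52. At E16.5, 5 of these rose against E12.5 and 4 against E11.5. Within E16.5, replicates 1 to 4 stood apart from replicates 5 to 8, with an endothelial mean of 9.35 to 9.52 against 8.53 to 8.88. In such bulk tissue, fewer cells of a type and less RNA per cell cannot be told apart, and the part that these mixtures play in the members' changes was not tested.

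Promoter windows of 300 bases, from 250 before to 50 after the annotated start, were available from RefSeq (GRCm38.p6) for 6 members: Six2, Six4, Six5, Eya3, Eya4 and Meox2. They are shown 5′ to 3′ on the gene's own strand for 4 of these members, Meox2, Six4, Six2 and Eya4. The windows of Six5 and Eya3, which are not shown, hold no MEF2, MEF3 or CCAAT match, so those shown favour windows with a match. Meox2, with the largest rise of the 9 members, lies on chromosome 12, plus strand, and its window chr12:37108290-37108589 holds a match to the MEF2 motif, in capitals, that begins 32 bases before the start.
Meox2: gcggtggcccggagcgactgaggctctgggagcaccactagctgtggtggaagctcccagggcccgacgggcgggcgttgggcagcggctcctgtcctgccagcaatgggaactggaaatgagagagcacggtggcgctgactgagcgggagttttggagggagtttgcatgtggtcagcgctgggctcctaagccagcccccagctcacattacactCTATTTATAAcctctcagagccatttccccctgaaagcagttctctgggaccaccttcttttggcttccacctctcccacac
Windows with a MEF2 match made up 3.19% of all 32851 windows. Six4, on the minus strand of the same chromosome, had 2 annotated starts, and the window chr12:73113196-73113495 of 1 of them holds the MEF3 letters TCAGGTT, which read AACCTGA on the strand shown and stand in capitals, 97 bases before the start.
Six4: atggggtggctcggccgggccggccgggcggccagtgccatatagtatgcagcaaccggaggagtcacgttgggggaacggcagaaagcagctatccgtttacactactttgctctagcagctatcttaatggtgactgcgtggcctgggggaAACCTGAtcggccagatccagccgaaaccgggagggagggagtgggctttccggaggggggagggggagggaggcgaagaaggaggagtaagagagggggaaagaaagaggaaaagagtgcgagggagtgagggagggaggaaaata
These letters, on either strand, occur in 4.07% of all windows. Six2, on the minus strand of chromosome 17 at chr17:85688205-85688504, holds the letters CCAAT on either strand, in capitals, 87 bases before its start.
Six2: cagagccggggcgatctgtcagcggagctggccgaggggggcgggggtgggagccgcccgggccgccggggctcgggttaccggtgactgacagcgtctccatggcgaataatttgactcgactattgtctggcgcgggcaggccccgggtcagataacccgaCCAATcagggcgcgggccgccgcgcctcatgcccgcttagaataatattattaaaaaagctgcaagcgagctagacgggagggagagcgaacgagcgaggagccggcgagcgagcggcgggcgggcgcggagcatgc
That short motif is common and occurs in 37.4% of windows. The Eya4 window chr10:23349894-23350193, minus strand, belongs to the Eya gene that rose, and it holds no MEF2, MEF3 or CCAAT match.
Eya4: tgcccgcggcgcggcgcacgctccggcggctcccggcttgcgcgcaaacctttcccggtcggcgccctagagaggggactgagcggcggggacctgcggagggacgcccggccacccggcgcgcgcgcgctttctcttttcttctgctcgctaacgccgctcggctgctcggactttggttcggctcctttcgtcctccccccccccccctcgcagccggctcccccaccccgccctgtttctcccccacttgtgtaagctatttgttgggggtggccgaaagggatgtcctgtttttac
TAATTA, a homeodomain core found in 5.29% of windows, and the CArG box, found in 1.63%, were in none of the windows of the 6 members. The E-box CANNTG occurs in 72.3% of windows and is not marked. A match is a string of letters and does not show that a factor binds there, and a window without one says nothing of the factor. G and C made up 60.7% of the Meox2 window, 60.0% of this Six4 window, 67.3% of the Six2 window and 69.3% of this Eya4 window, against a median of 52.7% over all windows.

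Between E12.5 and E16.5 the members parted in direction. Meox2 rose, while Six2, Six5, Eya1, Eya2 and Meox1 fell, and Six4, Eya3 and Eya4 did not pass the threshold of 0.05 on the limma p-value after adjustment over all genes. That is 6 of 9 members, and 27.1% of all genes passed in the same comparison (2223 higher and 3018 lower). Over the whole interval, E16.5 against E11.5, Meox2 and Eya4 rose and 6 members fell, Six4 being added to the 5 above, and Eya3 did not pass. That is 8 of 9, where 33.5% of all genes passed (2680 higher and 3799 lower). Between the 2 fold stages 0 of 9 members passed, where 0.388% of all genes did. Before adjustment, at a limma p-value under 0.05, 4 members would count between the fold stages, Eya4 and Meox2 higher and Six4 and Meox1 lower, against 14.4% of all genes. With the hepatocyte mean, which runs with stage, as a covariate, 3 members passed for E16.5 against E11.5: Eya1 (-1.55, limma adjusted p = 0.0352), Eya4 (1.83, 0.00777) and Meox2 (2.81, 0.00199). Meox1 (-1.21, limma adjusted p = 0.126) and Six2 (-1.08, 0.379) then missed the threshold with differences no smaller than without the covariate. Six4 (-0.12, 0.929), Six5 (-0.17, 0.802) and Eya2 (-0.40, 0.425) missed it with smaller ones. For E16.5 against E12.5, Six2 (-0.91, limma adjusted p = 0.0627) and Six5 (-0.25, 0.214) missed it and Eya4 passed (0.76, limma adjusted p = 0.0201). The 3 comparisons share arrays, so their counts do not support one another. The median absolute difference of the members was 0.28, 0.64 and 0.79 log2 for E12.5 against E11.5, E16.5 against E12.5 and E16.5 against E11.5, against 0.11, 0.15 and 0.18 over all genes. The signed medians were -0.05, -0.35 and -0.56, against -0.03, -0.02 and -0.08.

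**Figure D1:**
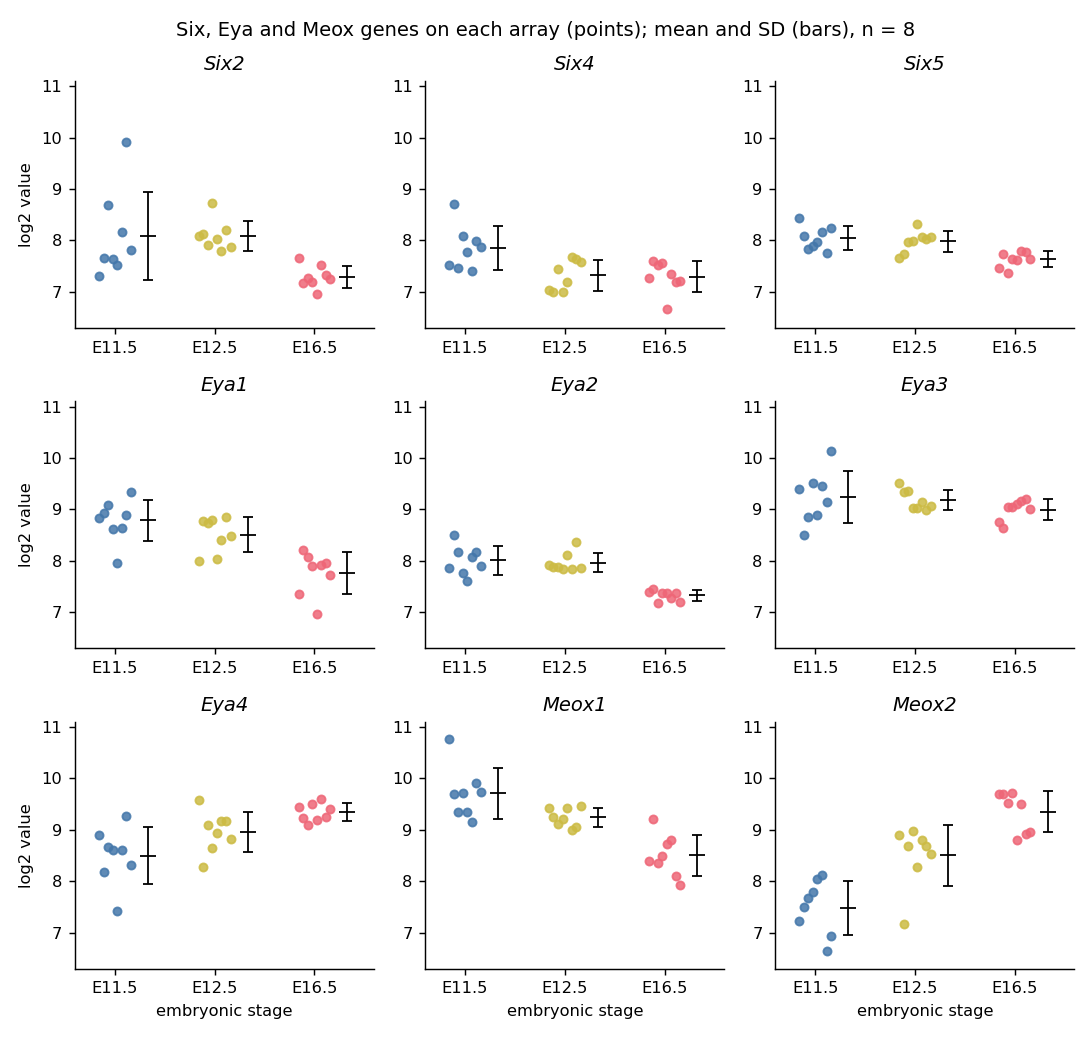
Log2 intensity of the 9 members in each of the 24 arrays (points) by embryonic stage, with stage means and standard deviations. Meox2 climbs from a mean of 7.49 at E11.5 to 9.35 at E16.5 without overlap of those 2 stages, while Eya2 sits at 7.18 to 7.45 at E16.5, below all arrays of both earlier stages.

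Meox2, a homeodomain factor of muscle precursors and vessel walls, showed the largest change of the 9 members between E11.5 and E16.5. The lowest, median and highest values of Meox2 were 6.64, 7.59 and 8.11 at E11.5, 7.16, 8.69 and 8.98 at E12.5, and 8.80, 9.52 and 9.73 at E16.5. All E16.5 arrays lay above all E11.5 arrays, and 7 of 8 E12.5 arrays lay above the highest E11.5 array, replicate 2 of E12.5 being the exception. The stage means rose from 7.49 ± 0.52 (SD) to 9.35 ± 0.39, a difference of 1.86 ± 0.24 (SE; 3.64-fold, limma adjusted p = 1.00e-06). The second step, E16.5 against E12.5, was 0.85 ± 0.24 (1.80-fold, adjusted p = 0.00852), with 5 of 8 arrays above the highest E12.5 value. The first step was 1.01 ± 0.24 (2.02-fold, 95% interval 0.52 to 1.51) and missed the threshold at a limma adjusted p of 0.0616. That step passed at 1.20 (limma adjusted p = 0.00257) when E12.5 replicate 2 was left out. The adjusted p was 0.0496 with E11.5 replicate 4 left out and 0.0377 with replicate 6 of that stage left out. E12.5 replicate 2 had the lowest mean of its stage for skeletal muscle (8.61), fold mesenchyme (9.05), myogenic progenitor, cardiomyocyte, cartilage and tendon markers and the highest for hepatocyte (12.73) and erythroid (11.80) markers, and the part of these was not tested. At E16.5 Meox2 was the member whose values separated replicates 1 to 4, at 9.53 to 9.73, from replicates 5 to 8, at 8.80 to 9.51. Of the 15 cell type lists, 3 separated the same arrays: endothelium as above, skeletal muscle (12.91 to 13.09 against 12.62 to 12.82) and erythroid cells (8.23 to 9.08 against 9.35 to 10.08). The part of these was not tested. With replicates 1 to 4 left out, the second step was 0.54 and did not pass (limma adjusted p = 0.253). The other 8 members overlapped between these arrays, with differences of -0.24 to 0.38 in their means.

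Meox1, the paralogue that marks the early somite, fell. Meox1 had lowest, median and highest values of 9.16, 9.71 and 10.77 at E11.5, 8.99, 9.23 and 9.47 at E12.5, and 7.93, 8.44 and 9.20 at E16.5. At E16.5, 7 of 8 arrays lay below the lowest array of each earlier stage, and a single array overlapped both. Meox1 fell by 1.21 ± 0.18 from E11.5 to E16.5 (2.31-fold, limma adjusted p = 9.84e-06), and by 0.74 ± 0.18 from E12.5 to E16.5 (1.67-fold, limma adjusted p = 0.00294). The difference between the fold stages was -0.47 ± 0.18 (95% interval -0.85 to -0.10, limma adjusted p = 0.251). The highest value, 10.77, came from E11.5 replicate 1. That array had the highest mean of its stage for skeletal muscle (9.90), endothelium (8.59) and cartilage (7.71) markers and the lowest for fold mesenchyme (9.13), and the part of these was not tested.

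Whether Meox1 and Meox2 changed by different amounts was tested within arrays, on the difference of Meox1 and Meox2 in the same array, by a two-sided exact permutation test. Relative to the E11.5 mean, Meox2 minus Meox1 spanned -1.32 to 1.18 (E11.5), 0.13 to 2.03 (E12.5) and 2.29 to 3.52 (E16.5). The E16.5 arrays thus overlapped neither earlier stage, while the fold stages overlapped each other. Meox1's change minus Meox2's was -1.48 ± 0.39 for E12.5 against E11.5 (exact p = 0.00311, 0.00932 adjusted over the 30 pair tests). It was -1.59 ± 0.27 for E16.5 against E12.5 and -3.07 ± 0.35 for E16.5 against E11.5, each at an exact p of 0.000155, the smallest that 12870 regroupings can give, and an adjusted value of 0.000932.

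**Figure D2:**
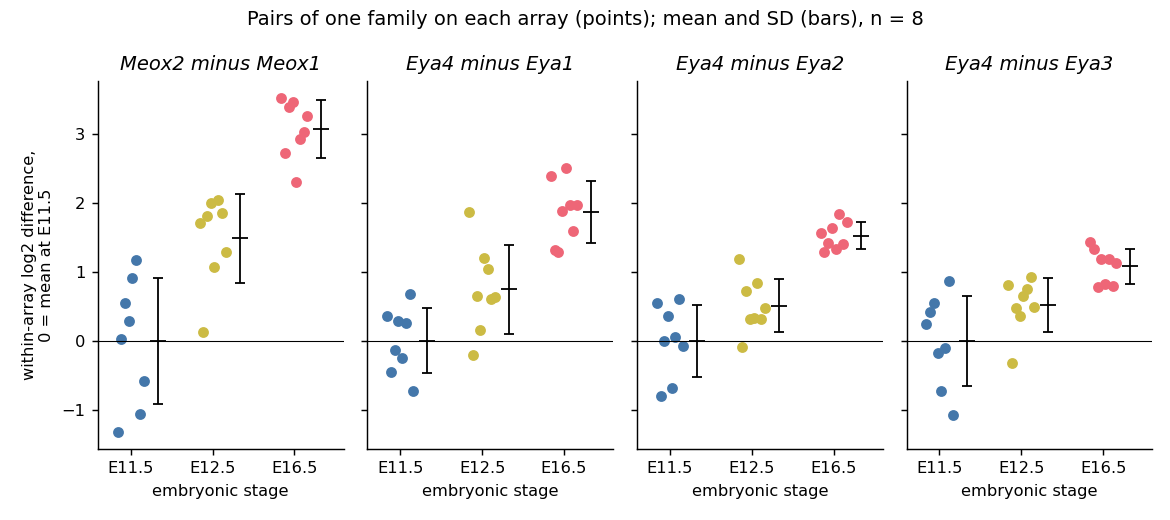
Within-array log2 difference of paralogues by stage, each array a point, set to a mean of 0 at E11.5. Meox2 minus Meox1 reaches 2.29 to 3.52 at E16.5, and Eya4 minus Eya1, Eya2 or Eya3 lies at 0.77 or above in every E16.5 array.

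Eya1 and Eya2, the coactivators tied to muscle precursors, both fell. Eya1 had lowest, median and highest values of 7.96, 8.86 and 9.34 at E11.5, 8.01, 8.60 and 8.86 at E12.5, and 6.96, 7.91 and 8.21 at E16.5. At E16.5, 6 of 8 arrays lay below all arrays of either earlier stage. Eya1 fell by 1.02 ± 0.18 from E11.5 to E16.5 (2.03-fold, limma adjusted p = 0.000100) and by 0.75 ± 0.18 from E12.5 to E16.5 (1.68-fold, limma adjusted p = 0.00301). Between the fold stages it differed by -0.28 ± 0.18 (95% interval -0.66 to 0.10, limma adjusted p = 0.491).

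Eya2 had the smallest spread at E16.5. At its lowest, median and highest it read 7.61, 7.99 and 8.51 at E11.5, 7.84, 7.88 and 8.38 at E12.5, and 7.18, 7.37 and 7.45 at E16.5. The E16.5 arrays overlapped neither earlier stage, while the fold stages covered much the same range. Eya2 fell by 0.64 ± 0.10 from E12.5 to E16.5 (1.55-fold, limma adjusted p = 2.68e-05) and by 0.68 ± 0.10 from E11.5 to E16.5 (1.60-fold, limma adjusted p = 8.75e-06). Between the fold stages the difference was -0.04 ± 0.10 (95% interval -0.25 to 0.16, limma adjusted p = 0.860). Stages without overlap were seen for 2 members in E16.5 against E12.5, Six2 and Eya2, where 10.1% of all genes showed this. They were seen for 2 members in E16.5 against E11.5, Eya2 and Meox2, where 9.08% did, and for 0 members between the fold stages, where 0.129% did.

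Eya4, a family member known from heart and inner ear, passed the threshold over the whole interval and in neither step alone. Lowest, median and highest values of Eya4 were 7.42, 8.61 and 9.28 at E11.5, 8.28, 9.01 and 9.59 at E12.5, and 9.09, 9.33 and 9.60 at E16.5. Neighbouring stages overlapped, and at E16.5 4 of 8 arrays lay above the highest E11.5 array. Eya4 rose by 0.84 ± 0.19 from E11.5 to E16.5 (1.79-fold, limma adjusted p = 0.00123). The first step, 0.47 ± 0.19 (95% interval 0.07 to 0.86, limma adjusted p = 0.275), and the second, 0.38 ± 0.19 (-0.02 to 0.77, limma adjusted p = 0.162), each missed the threshold.

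Eya3, a broadly expressed Eya gene, did not pass in any comparison. For Eya3 the lowest, median and highest values were 8.51, 9.27 and 10.13 at E11.5, 8.99, 9.11 and 9.51 at E12.5, and 8.63, 9.05 and 9.20 at E16.5. All stages overlapped. The difference from E11.5 to E16.5 was -0.24 ± 0.16 (95% interval -0.57 to 0.09, limma adjusted p = 0.253), so a fall of up to 0.57 lies within the interval.

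Within the family, Eya4 parted from each of the others. Relative to the E11.5 mean, Eya4 minus Eya1 spanned -0.73 to 0.67 (E11.5), -0.20 to 1.87 (E12.5) and 1.29 to 2.51 (E16.5). The change of Eya1 minus that of Eya4, E16.5 against E11.5, was -1.86 ± 0.23, that of Eya2 minus that of Eya4 was -1.52 ± 0.20, and that of Eya3 minus that of Eya4 was -1.08 ± 0.25. The exact permutation values adjusted over 30 tests were 0.000932, 0.000932 and 0.00311, and the E16.5 arrays did not overlap the E11.5 arrays for Eya1 and Eya2. For E16.5 against E12.5 the same differences were -1.12 ± 0.28, -1.01 ± 0.15 and -0.56 ± 0.16, with adjusted exact values of 0.00666, 0.000932 and 0.00673. With fewer arrays the first of these missed the threshold at a similar size without E16.5 replicates 5 to 8 (-0.98, 0.0556), and so did the last without replicates 1 to 4 (-0.46, 0.0820). Eya1 already differed from Eya4 in the step between the fold stages, by -0.74 ± 0.28 (adjusted exact p = 0.0373), but leaving out any of 10 single arrays lost that call, with adjusted exact values up to 0.0730. Eya1 and Eya2 were not told apart: their changes differed by -0.11 ± 0.20 for E16.5 against E12.5 (adjusted exact p = 0.641) and by -0.34 for E16.5 against E11.5 (0.161). Eya2's change minus Eya3's in the second step was -0.45 ± 0.15 (adjusted exact p = 0.0214), a call lost without E16.5 replicates 5 to 8 (-0.30, 0.266). Eya1's change minus Eya3's for E16.5 against E11.5 was -0.78 ± 0.25 (adjusted exact p = 0.0153), and this too was lost without those arrays (-0.54, 0.197).

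Six2, known above all from nephron progenitors and from tendon and facial mesenchyme, had its widest spread at E11.5. Its arrays had lowest, median and highest values of 7.32, 7.74 and 9.91 at E11.5, 7.79, 8.06 and 8.73 at E12.5, and 6.96, 7.26 and 7.65 at E16.5. All E16.5 arrays lay below all E12.5 arrays, whereas E11.5 overlapped both. Six2 fell by 0.80 ± 0.25 from E12.5 to E16.5 (1.74-fold, limma adjusted p = 0.0181) and by 0.79 ± 0.25 from E11.5 to E16.5 (1.73-fold, limma adjusted p = 0.0163). With fewer arrays both calls were lost at similar sizes. Without E16.5 replicates 1 to 4 the differences were -0.83 (limma adjusted p = 0.0935) and -0.83 (0.0817). Without replicates 5 to 8 they were -0.77 (limma adjusted p = 0.103) and -0.76 (0.0934). The fit used 1 spread per gene for all 3 stages, and the SD of Six2 was 0.85, 0.29 and 0.21 at E11.5, E12.5 and E16.5. Between the fold stages the difference was 0.00 ± 0.25 (95% interval -0.51 to 0.52, limma adjusted p = 0.995). The E11.5 array at 9.91 was replicate 7, which also had the highest mean of its stage for neuronal (7.35), nephric and kidney (7.28) and myogenic progenitor (8.55) markers and the lowest for hepatocyte (6.98) and mesothelium (8.15) markers. The part of these was not tested. Of 5 nephric and kidney markers, 0 passed in E16.5 against E12.5 and 1 fell in E16.5 against E11.5, and their mean spanned 6.91 to 7.28, 6.95 to 7.10 and 6.86 to 7.13 at the 3 stages.

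Six4, a family member of muscle precursors, passed the threshold over the whole interval alone. Lowest, median and highest values of Six4 were 7.41, 7.83 and 8.71 at E11.5, 7.0, 7.31 and 7.68 at E12.5, and 6.67, 7.31 and 7.60 at E16.5. The later stages covered much the same range, and both overlapped E11.5. Six4 fell by 0.56 ± 0.16 from E11.5 to E16.5 (1.47-fold, limma adjusted p = 0.0104), a call lost without E16.5 replicates 5 to 8 (-0.37, 0.172). The first step was -0.53 ± 0.16 (95% interval -0.87 to -0.19, limma adjusted p = 0.160), and the second was -0.02 ± 0.16 (-0.36 to 0.31, limma adjusted p = 0.944).

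Six5, a broadly expressed member that lies beside Dmpk at the myotonic dystrophy locus, had the smallest fall of the members that passed. The lowest, median and highest values of Six5 were 7.75, 8.03 and 8.44 at E11.5, 7.66, 8.01 and 8.32 at E12.5, and 7.37, 7.65 and 7.80 at E16.5. At E16.5, 5 of 8 arrays lay below the lowest E12.5 array and 6 of 8 below the lowest E11.5 array. Six5 fell by 0.35 ± 0.10 from E12.5 to E16.5 (1.27-fold, limma adjusted p = 0.00937) and by 0.41 ± 0.10 from E11.5 to E16.5 (1.33-fold, limma adjusted p = 0.00200). Without E16.5 replicates 1 to 4 these were -0.27 (limma adjusted p = 0.150) and -0.34 (0.0542). Between the fold stages the difference was -0.07 ± 0.10 (95% interval -0.27 to 0.14, limma adjusted p = 0.775).

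Among the 9 tests of Six-family pairs, 2 passed, both in the second step. Six2's change minus Six4's was -0.77 ± 0.21 for E16.5 against E12.5 (adjusted exact p = 0.00673; -0.62 and 0.0820 without E16.5 replicates 1 to 4), and Six2's minus Six5's was -0.45 ± 0.17 (adjusted exact p = 0.0373). The latter did not pass when any of 9 single arrays was left out, with adjusted exact values up to 0.0666. Over the whole interval the 3 Six-family pairs had adjusted exact values of 0.450 to 0.596, which does not show that they changed alike. Of the 30 pair tests over the 3 families, 14 passed, and 12 to 17 passed when 1 array was left out.

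**Figure D3:**
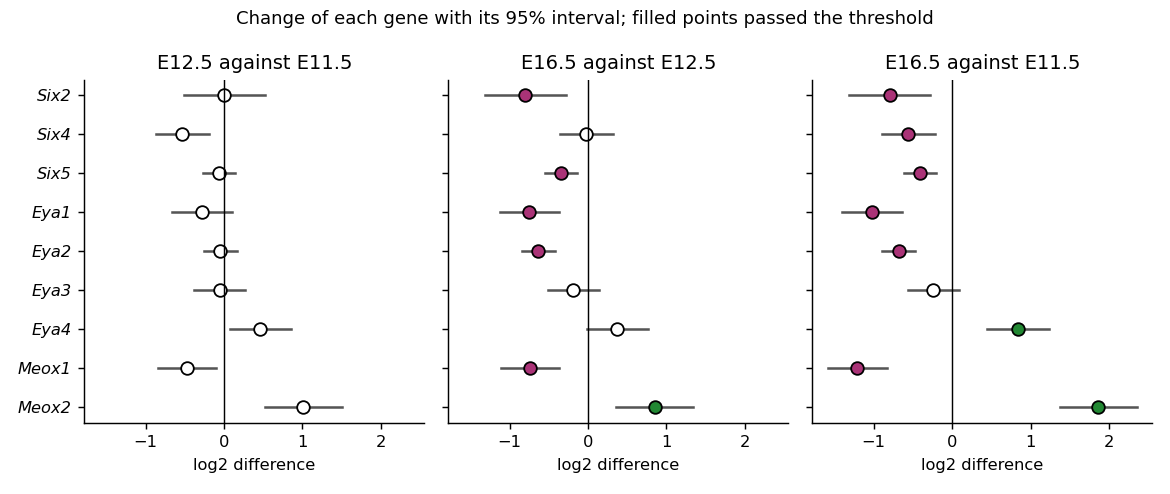
Log2 difference of each member in the 3 stage comparisons with its 95% interval (lines); filled points passed the threshold and the vertical line marks no difference. For E16.5 against E11.5 Meox2 stands at 1.86 and Meox1 at -1.21, and between the fold stages 0 members passed the adjusted threshold.

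Against the mean of the outer stages, 1 of 9 members passed at E12.5, where 10.8% of all genes did. This was Eya2, higher by 0.30 ± 0.09 (95% interval 0.11 to 0.48, limma adjusted p = 0.0303). The call was lost after quantile normalization of the arrays again (0.25, limma adjusted p = 0.0764), after centring on the 75th percentile (0.24, 0.106), and without E12.5 replicate 5 (0.27, 0.0702), E12.5 replicate 7 (0.24, 0.0862), or E16.5 replicates 1 to 4 (0.31, 0.0732) or 5 to 8 (0.28, 0.0726). Six2 had 0.40 ± 0.22 (limma adjusted p = 0.268) and passed without E11.5 replicate 7 (0.53, limma adjusted p = 0.0141). The median SD of the members over arrays was 0.49, 0.29 and 0.21 at the 3 stages, against 0.21, 0.17 and 0.19 over all genes.

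Genes of the proteins that work with Eya and Six-family factors passed in both directions. Of 21 listed partners and co-regulators (Dach, Pax, Tle, Ski, further Six-family and related genes), 20 were measured. Of these, 0 passed between the fold stages, 4 rose and 5 fell in E16.5 against E12.5, and 4 rose and 5 fell in E16.5 against E11.5, with medians of -0.04, -0.03 and -0.09. The share called was 45% in each comparison with E16.5, beside 27.1% and 33.5% of all genes. The values of Dach1, Pax3 and Pax7 are given for their roles and were chosen after they had been seen. Dach1, the corepressor partner, rose by 0.55 and 0.41 in the comparisons with E12.5 and E11.5. Its paralogue Dach2 lay below the lower quartile in all arrays. Sobp, a cofactor of the Six-family, rose by 0.63 and 0.64, Tbx1, a T-box factor, by 0.58 and 0.75, and Tle5, a shortened Groucho-type protein, by 0.64 and 0.70. The Groucho corepressor Tle3 fell, with differences of -0.93 and -1.06. Pax3, which acts downstream of Eya and Six-family proteins in muscle precursors, fell by 0.61 from E11.5 to E16.5 (limma adjusted p = 0.0134), and Pax7, of later satellite cells, fell by 0.27 from E12.5 to E16.5 (limma adjusted p = 0.0378).

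Genes of the somites, Meox1's tissue of origin, were called about as often as all genes when both directions are counted, and those that passed all fell. Of 23 listed, 22 were measured, and 0 passed between the fold stages, 5 fell and 0 rose in E16.5 against E12.5, and 8 fell and 0 rose in E16.5 against E11.5. The shares called in the comparisons with E16.5 were 22.7% and 36.4%, beside 27.1% and 33.5% of all genes in either direction. Of all genes, 15.6% and 19.6% were called lower. The medians were -0.08, -0.04 and -0.07, beside -0.03, -0.02 and -0.08 over all genes. The largest falls were in transcription factors that also belong to mesenchyme: the differences were -1.81 and -2.03 for Twist1, -1.68 and -2.03 for Foxc2, -1.69 and -1.99 for Meis2, and -1.63 and -1.95 for Meis1.

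Genes that Six-family proteins are known to act on were taken in 3 lists. Of all genes, 27.1% and 33.5% passed in the comparisons of E16.5 with E12.5 and E11.5, and 0.388% between the fold stages. All 14 fast-fibre genes rose in both comparisons with E16.5, with medians of 2.62 and 3.50, and Mylpf, a fast myosin light chain, passed between the fold stages as the single one of the 14 (1.89, limma adjusted p = 0.0142). Tnnt3 and Tnni2, fast troponin subunits, rose by 4.01 and 3.86 from E12.5 to E16.5, and Myl1, a fast light chain, rose by 4.19. These rises ran with the skeletal muscle markers, and Mylpf and Tnnt3 are in both lists. Pvalb lay below the lower quartile in 7 arrays of each fold stage and Myh1 in 5 arrays at E11.5. The sizes of the rises of Pvalb, and of Myh1 from E11.5, are thus less certain. Of 14 myogenic genes, 2 rose between the fold stages, Myod1 by 0.74 and Mef2c by 1.15. From E12.5 to E16.5, 5 rose and 3 fell, and from E11.5, 6 rose and 1 fell, which is 57.1% and 50% of the 14. Myf6 rose by 4.33 log2 units from E12.5, and Myod1 fell. The size of the Myf6 rise is less certain, since 7 of the 8 E12.5 arrays lay below their lower quartile. Myog rose by 0.95 from E11.5 to E16.5. Of 11 growth genes 10 were measured. The cell cycle gene Ccnd2 fell, with differences of -1.48 and -1.33 in the comparisons with E12.5 and E11.5, and Myc rose by 0.62 between the fold stages and fell by 1.18 from E12.5 to E16.5. In all, 0 growth genes rose and 5 fell from E12.5 to E16.5, and 1 rose and 4 fell from E11.5, with medians of -0.30 and -0.23. Each time 50% of the 10 passed.

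**Figure D4:**
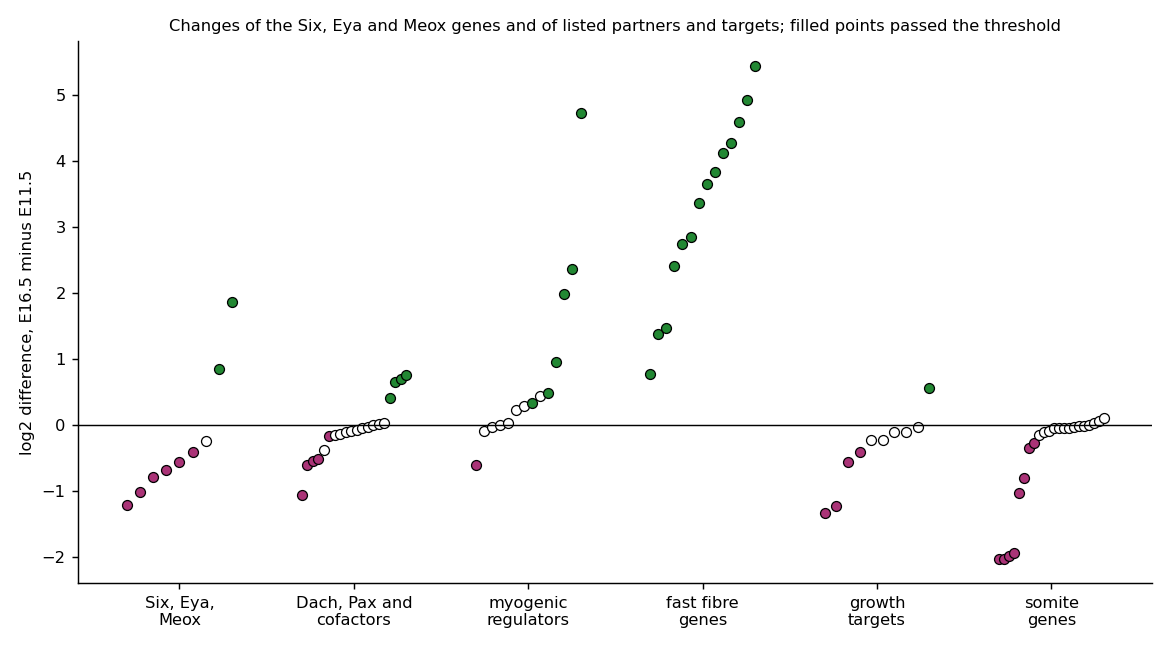
Log2 difference of E16.5 against E11.5 for the members and for each listed partner, target and somite gene (points, filled where past the threshold). The 14 fast-fibre genes all lie above 0 with a median of 3.50, while the partner list has a median of -0.09.

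Across the 24 arrays, the genes that ran most like each member were found by Pearson r among genes with 1 symbol. These correlations are descriptions that rest on the stage differences which all arrays of a stage share, so r after taking out stage means is given beside the highest. Meox2 ran most like Mef2c (0.905, and 0.605 within stages), Pdlim3 (0.903 and 0.697) and Vim (0.898 and 0.628). Eya2 ran most like Ttyh3 (0.922 and 0.708), Cdk2ap1 (0.903) and Tmem151b (0.888). Eya1 was closest to Llgl1 (0.856), Mex3b and Aarsd1, Eya3 to Fam111a (0.798), Prrg1 and Shcbp1, and Eya4 to Tcf4 (0.855), Zfp106 and Armh4. Meox1 was closest to Lasp1 (0.859), Adgrv1 and Spaca6. Six2 was closest to Selenon (0.887 and 0.821), Fsip1 and Metrn, Six4 to Kctd10 (0.772), Mau2 and Zfp575, and Six5 to Zmym2 (0.827), Blmh and Gmcl1. Within the members, Eya1 and Eya2 had the highest r of the 36 pairs, 0.724, and Meox1 and Meox2 the lowest, -0.732. With stage means removed these were 0.253 and -0.175, and the 36 pairs then ranged from -0.46 to 0.41 with a median of 0.04.

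The genes next to each member in the RefSeq order of GRCm38.p6 were looked up. Values of 15 such neighbours were read. In E16.5 against E11.5, 3 neighbours passed in the direction of a member that passed and 2 in the opposite direction, and 10 did not pass. The 5 that passed are 33.3% of the 15, beside 33.5% of all genes. Zmynd8, next to Eya2, fell by 0.88 and Srbd1, next to Six2, fell by 0.61, while Six3, on the other side of Six2, differed by 0.00 (limma adjusted p = 0.976). Etv4, next to Meox1, fell by 0.29. Dmpk, the protein kinase gene beside Six5, rose by 1.98 (limma adjusted p = 6.38e-09) while Six5 fell. Mnat1, beside Six4, rose by 0.46. Msc, a repressor of myogenic factors beside Eya1, fell by 0.54 from E12.5 to E16.5, and Tcf21 and Rps12 beside Eya4 passed in 0 comparisons between stages.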

How the data were processed

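The authors deposited 1 log2 intensity per probe set and array. Per the submitters' processing notes, Affymetrix Expression Console 1.1, RMA and R 2.9.2 were used, without their roles; whether all 24 arrays were normalized together is not given in the sources used here, and the log2 scale was inferred from how far the values reach. RNA from laser-captured tissue was amplified before hybridisation, per the labels' protocols. Arrays have no read depth, so their number limits the precision.

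Of 24200 probe sets, 20760 with 1 gene symbol were kept, and the highest-mean probe set was taken where a gene had several, giving 19351 genes. The stage comparisons used lmFit and eBayes of limma 3.58.1 (R 4.3.3), with all 24 arrays, no covariate, two-sided tests, with Benjamini-Hochberg adjustment over all genes and a threshold of 0.05. The script was tested on simulated data. Paralogues were compared by two-sided exact permutation of within-array differences, adjusted over 30 tests. The named genes are all 9 members, list genes past the threshold (values for the 4 largest changes per list and comparison, and outside this rule for Dach1, Pax3 and Pax7), and the 3 most similar genes per member. Neighbours were added. Members and lists were chosen with earlier results of these data known, and lists came from general knowledge. Cell type lists other than those described numbered 10 (cardiomyocyte, cartilage, erythroid, lung epithelium, macrophage, mesothelium, myogenic progenitor, neuron, Schwann cell and tendon). Alternatives included other scalings, filters, covariates, the replicate number as a block and leaving out each array. Replicate numbers were checked for pairing. Deviations of same-numbered arrays correlated by -0.28 to 0.09, so no pairing was seen in the values. Such correlations cannot exclude a shared batch that the labels do not name. Python 3.11.15, pandas 2.3.3, scipy 1.17.1 and matplotlib 3.10.9 were used.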

Additional observations from a re-analysis of the deposited data

Results flagged for a closer look

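In each stage the gap between the most extreme array and its nearest neighbour, as a share of the range of the 8 arrays, was set against Dixon's 95% critical value. Of 27 groups (9 members at 3 stages) 4 exceeded it, and chance gives about 1 in 20 groups. Six2 at E12.5 was 8.73 in replicate 4, the others lying between 7.79 and 8.21. Six4 at E16.5 was 6.67 in replicate 5, the others lying between 7.20 and 7.60, and that array was also the lowest of its stage for Six2, Eya1 and Meox2. Meox1 at E11.5 was 10.77 in replicate 1, the others lying between 9.16 and 9.92. Meox2 at E12.5 was 7.16 in replicate 2, the others lying between 8.27 and 8.98, and that array was also the lowest of its stage for Six4 and Eya4.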

How the results depend on the processing

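The number of genes past the threshold between the fold stages, 75, was 9 with only those stages fitted, 43 with the replicate block, 49 after quantile normalization again, 42 with the hepatocyte mean as covariate, 32 and 34 without E16.5 replicates 1 to 4 or 5 to 8, and 26 to 151 when single arrays were left out. The higher share of these genes, 85.3%, was 62.7% and 51.6% after centring on the median or the 75th percentile, and that of the middle-stage contrast went from 58.1% to 36.0% with the latter. That of E16.5 against E12.5 went from 42.4% to 50.9% with 75th percentile centring, and that of E16.5 against E11.5 from 41.4% to 58.5% with the hepatocyte covariate. The members past the threshold between the fold stages, 0, were 1 (Meox2) without the dimmest 50% of genes or without E12.5 replicates 2 and 3 together. They were 0 to 1 with single arrays left out. For E16.5 against E12.5 the gene count, 5241, was 3479 without E16.5 replicates 1 to 4 (single arrays 4876 to 5328), and the member count, 6, was then 3 (single arrays 6 to 6). For E16.5 against E11.5 the counts, 6479 and 8, were 1334 and 3 with the hepatocyte covariate, which runs with stage, and the gene count was 4265 without E16.5 replicates 1 to 4 (single arrays 6018 to 7163, members 8 to 8). The middle-stage count, 1, was 0 after quantile normalization, 75th percentile centring and without either E16.5 set, and 0 to 2 with single arrays left out. The 14 pair calls were 12 to 17 with single arrays left out. The causes were not tested.

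Values that changed sign had missed the threshold. For E12.5 against E11.5, Six2 was -0.0471, -0.0259 and -0.0673 after quantile, median and 75th percentile scaling and -0.17 with the hepatocyte covariate (single arrays -0.11 to 0.26), Six5 and Eya2 were 0.0847 and 0.13 with that covariate, and single arrays gave Eya2 -0.10 to 0.0258 and Eya3 -0.16 to 0.0753. For E16.5 against E12.5, Six4 was 0.0245 with 75th percentile centring, 0.15 with the covariate and 0.17 without E16.5 replicates 5 to 8 (single arrays -0.0701 to 0.0648). In the middle-stage contrast Eya4 was -0.00836 and -0.0155 with quantile and 75th percentile scaling (single arrays -0.0444 to 0.14) and Meox2 -0.0737 without E16.5 replicates 5 to 8. Pair differences were 0.12 for Six4 minus Six5 (E16.5 against E11.5) without that set, and with single arrays left out -0.10 to 0.37 for Six2 minus Six5 and -0.13 to 0.18 for Eya2 minus Eya3 (E12.5 against E11.5), -0.20 to 0.0100 for Eya1 minus Eya2 (E16.5 against E12.5) and -0.42 to 0.00392 for Six2 minus Six4 (E16.5 against E11.5). With the replicate block the member counts were 0, 6, 8 and 1, as without it, and it changed no member's call.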

Other observations

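Lists of other cell types were read beside the members for E16.5 against E11.5, as values only. In that comparison 33.5% of all genes passed. Of 5 lung epithelium genes 3 rose, and their mean spanned 6.98 to 7.25 (E11.5), 6.86 to 7.13 (E12.5) and 7.57 to 8.72 (E16.5). Of 4 erythroid genes 2 fell, the globin genes Hbb-y (-4.29) and Hba-x (-5.12). The others, Alas2 (0.29) and Slc4a1 (0.06), did not pass. The mean of the 4 spanned 11.08 to 11.69, 10.90 to 11.80 and 8.23 to 10.08, and its fall came from the globin genes. Of 5 myogenic progenitor genes 1 rose and 1 fell, with means of 8.05 to 8.55, 8.15 to 8.68 and 8.11 to 8.37. Among 5 cardiomyocyte genes 2 rose and 1 fell, among 5 mesothelium genes 1 rose and 2 fell, among 4 tendon genes 1 rose and 1 fell, and among 5 cartilage genes 2 fell. Of 5 macrophage genes 1 rose. None of the 5 neuron genes and none of the 3 Schwann cell genes measured passed in limma's test, where 1 and 0 of them had an unadjusted p under 0.05. The part of these tissues in the members' changes was not tested.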
